A study of Danio rerio with 6 samples.

Results

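The proteins of the small ribosomal subunit are encoded by the genes rpsa and rps2 to rps29, and their mRNAs are the subject here. Members were all rows of the deposited expression table whose gene name, ignoring case, was rpsa or rps followed by a number and at most a letter or a numbered suffix. There were 36 such rows of 21837 rows with a gene name. Names of S6 kinases (rps6k genes) and of mitochondrial ribosomal proteins do not match the rule, and neither do faua, faub and rack1, whose products also belong to the small subunit. All 36 names were symbols in the RefSeq gene table of assembly GRCz12tu, which was used for names only.

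The libraries were made from uncultured cells labelled GFP+, from Tg(fli1a:eGFP) zebrafish 28 hours after fertilization; the series asks how clec16a acts on blood stem and progenitor cells. In this line green fluorescent protein is driven by fli1a regulatory sequence, known to be active in endothelium and also in some blood and pharyngeal arch cells. The embryos carried a clec16a morpholino (MO, 3 libraries) or a control MO (3 libraries); such antisense oligomers block either translation or splicing, and the labels do not say which applies here. The deposited sample titles, which start with NegaP for the clec16a MO libraries and Exp2D for the control MO libraries, do not name the morpholino, so the groups rest on the genotype and description labels. All 6 libraries share the transgene, and the labels describe no gate for the cells and no pooling. The labels do not tie libraries to clutches, so each p-value reflects only the variation among these libraries, which may be technical.

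The small subunit binds mRNA, scans it for the start codon and holds the decoding site where tRNA meets codon. Its head swivels over the body, and mRNA passes between them. Ribosomal protein genes are expressed in every growing cell, and their mRNAs carry a pyrimidine tract at the 5′ end (the TOP motif) through which mTOR signalling controls their translation. In people, loss of 1 copy of any of several of these genes causes Diamond-Blackfan anemia, in which red cell precursors fail, and zebrafish lacking ribosomal proteins have been used as models of it.

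Expression is given as FPKM, sequenced fragments divided by transcript length and by the size of the library, as the authors deposited it. FPKM carries no total count, so depth is unknown. Rows above 0 numbered 15715, 15153 and 15871 in clec16a MO libraries and 19317, 19250 and 19284 in control MO libraries. The targeted gene clec16a had 5.68, 5.57 and 4.24 FPKM in clec16a MO libraries and 14.4, 14.1 and 14.3 FPKM in control MO libraries (difference -1.32 on the log2 scale with SE 0.13, adjusted p = 5.5e-05 by limma). With each library centred on the median of its tested rows the difference was -0.63 (adjusted p = 0.0031 by limma), and with quantile normalization -0.80 (adjusted p = 0.00041 by limma). A MO that blocks translation need not lower its mRNA, so this value does not by itself check the labels.

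The cell type label was checked against markers, and the clec16a MO libraries stood apart from it. By markers the control MO libraries were not purely endothelial either, since they held muscle and epidermal mRNAs as well. Sums given here take in every row found for a list, tested or not. Across all tested rows of the table, 54.6% fell and 26.7% rose. Of 20 endothelial genes 19 fell and 0 rose. Their summed FPKM spanned 1883 to 2268 in clec16a MO libraries and 6076 to 6098 in control MO libraries. erg, an endothelial transcription factor gene, was at 0 in all clec16a MO libraries, and fli1a itself had 109, 96.8 and 114.5 FPKM there against 1096, 1083 and 967 FPKM in control MO libraries. Of 22 erythroid rows 22 rose, with sums of 33388 to 59413 FPKM in clec16a MO libraries and 2721 to 3052 FPKM in control MO libraries. Of 17 tested macrophage and neutrophil rows 16 rose, with sums of 3289 to 4583 FPKM in clec16a MO libraries and 59.7 to 63.3 FPKM in control MO libraries, where mpx, mpeg1.1, csf1ra, marco, ncf1, lect2l and 7 rows of mfap4 were at 0. Of 17 muscle genes 17 fell, with sums of 32.3 to 46.7 FPKM in clec16a MO libraries and 3424 to 3488 FPKM in control MO libraries. Of 11 tested epidermal genes 10 fell, with sums of 97.7 to 113.5 FPKM in clec16a MO libraries and 1099 to 1122 FPKM in control MO libraries. Of 5 tested neural genes 4 fell, with sums of 9.55 to 15.6 FPKM in clec16a MO libraries, where snap25b was at 0, and 39.9 to 41.2 FPKM in control MO libraries. Of 4 tested neural crest and arch genes 3 fell, with sums of 6.31 to 8.60 FPKM in clec16a MO libraries, where foxd3 and sox10 were at 0, and 18.3 to 19.8 FPKM in control MO libraries. These differences run with the groups in every comparison that follows, and their part in the values of the small subunit genes was not tested.

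Nearly the whole set fell in clec16a MO libraries. Of the 36 rows, 35 averaged 1 FPKM or more across libraries and were tested; 33 were lower, 2 were higher (rps18 and rps27l) and 0 missed the threshold, an adjusted p below 0.05 in limma's moderated test on log2(FPKM + 1) with Benjamini-Hochberg adjustment over all 12153 rows tested. Over all those rows, 54.6% were called lower and 26.7% higher. The median log2 difference, clec16a MO minus control MO, was -3.33 over the 35 rows and -0.66 over all tested rows. A difference of -3 or lower was reached by 19 of the 35 rows and by 6.25% of all tested rows. In the order of all tested rows by log2 difference, 23 of the 35 lay in the lowest 10% and 18 in the lowest 5%. FPKM is relative, so that fewer cells of a type and less RNA per cell cannot be told apart in these bulk libraries.

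**Figure D1:**
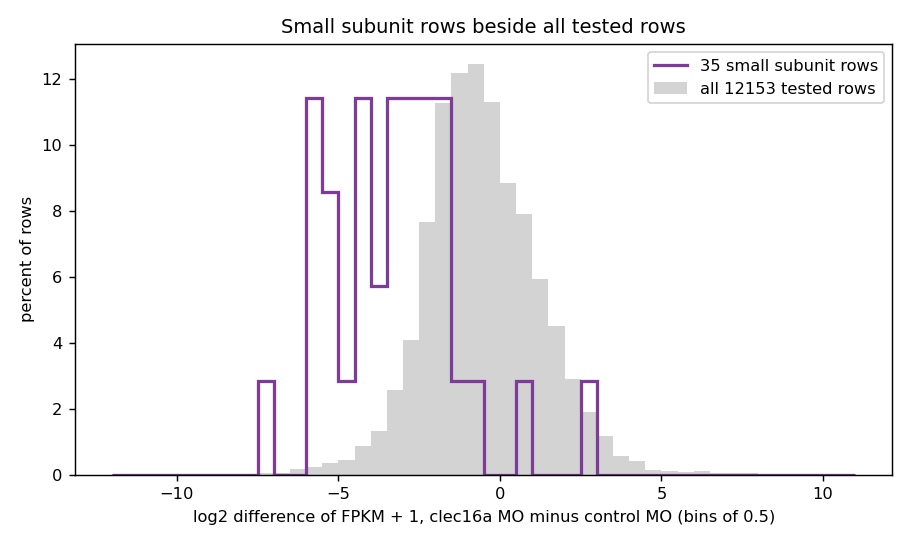
Percent of rows (vertical axis) by log2 difference of FPKM + 1, clec16a MO minus control MO (horizontal axis, bins of 0.5), for the 35 tested small subunit rows (line) and all 12153 tested rows (grey). The small subunit rows lie mostly to the left, with a median of -3.33 against -0.66 for all tested rows, and 2 rows lie above 0.

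The 3 clec16a MO libraries did not overlap the 3 control MO libraries for any of the 35 rows: 33 rows were lower in every clec16a MO library and 2 were higher in every one. Groups that did not overlap were common in the table, with the clec16a MO libraries all lower for 56.1% and all higher for 27.6% of tested rows. In the clec16a MO libraries the mean level of the 35 rows ran from 0.530 FPKM (rps3) to 848 FPKM (rps27l), with a median over rows of 29.3 FPKM. In the control MO libraries it ran from 67.0 FPKM (rps9) to 2610 FPKM (rps20), with a median of 288 FPKM. Among the 500 rows with the highest mean of the whole table, there were 3 small subunit rows in the clec16a MO group and 29 in the control MO group.

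**Figure D2:**
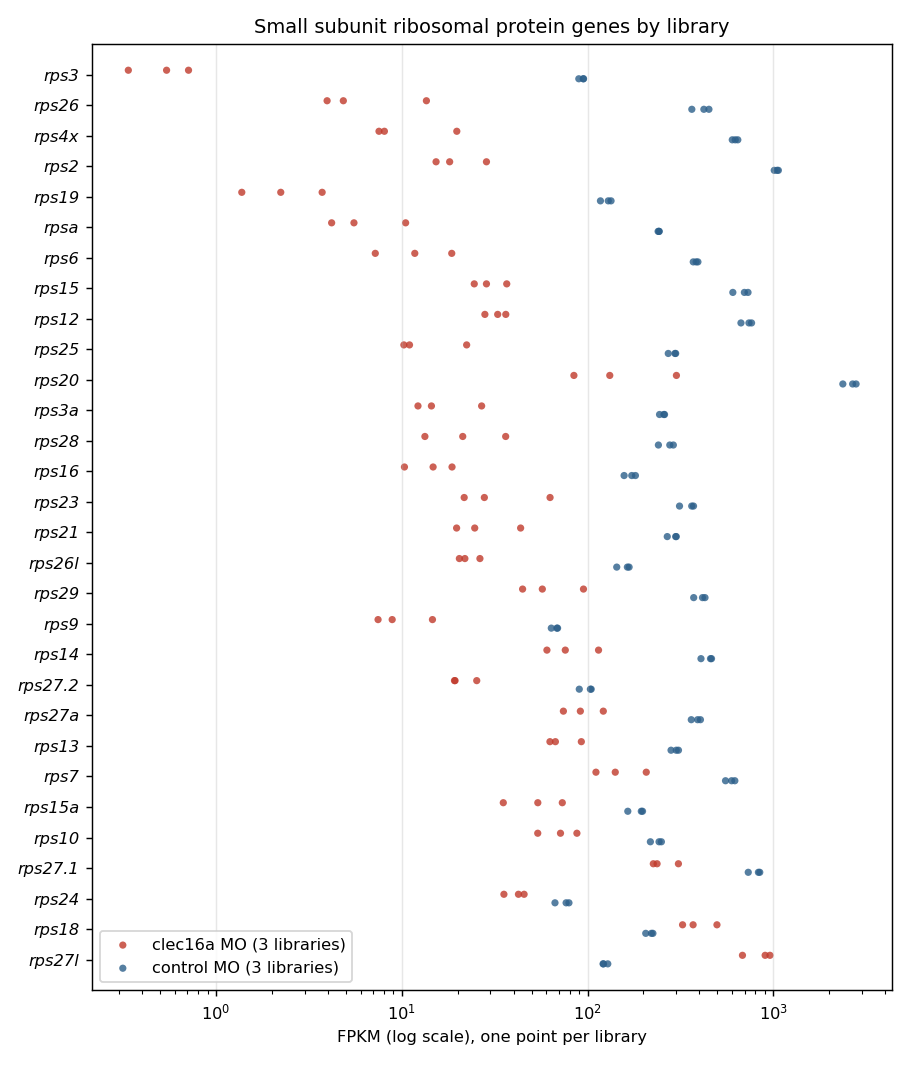
FPKM on a log scale (horizontal axis) of 30 tested small subunit rows, one point per library, with clec16a MO points above control MO points on each line and rows ordered by log2 difference. The 2 groups do not overlap on any line, and the clec16a MO points lie to the right only for rps18 and rps27l.

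Together the 36 rows took 0.663%, 0.438% and 0.515% of the summed FPKM of the clec16a MO libraries and 3.01%, 2.96% and 2.74% of that of the control MO libraries. All 3 clec16a MO shares lay below all 3 control MO shares, with means of 0.539% ± 0.115 and 2.90% ± 0.141 (SD, n = 3 libraries in each group). Without rps18 and rps27l the shares were 0.397%, 0.236% and 0.272% in clec16a MO libraries and 2.94%, 2.89% and 2.68% in control MO libraries. The 2 rows left out were those called higher in these same data, so the gap between the groups had to widen. No p is given for these sums, because the set was chosen with earlier results of these data known.

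Library by library, the rows moved together within each group. clec16a MO replicate 1 was the highest of its group for 34 of the 35 rows, while it was the highest for 41.6% of all tested rows. clec16a MO replicate 2 was the lowest of its group for 30 rows (37.2% of all tested rows). Among the control MO libraries, replicate 3 was the lowest for 34 rows (30.8% of all tested rows) and replicate 1 the highest for 28 (31.4%). The exception to the first of these was rps26l, which was lowest in clec16a MO replicate 1. The SD relative to the mean had a median over rows of 35.1% in the clec16a MO group and 6.71% in the control MO group. Leaving out clec16a MO replicate 1 gave a median log2 difference of -3.65 over the 35 rows, and in each of the 6 fits that left out 1 library 33 rows were lower and 2 higher.

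Among the deepest falls were those of rps3, rps2 and rps4x. rps3, whose product stands at the mRNA entry channel, had 0.711, 0.337 and 0.541 FPKM in clec16a MO libraries and 94.8, 95.1 and 89.7 FPKM in control MO libraries (difference -5.95 on the log2 scale with SE 0.12, adjusted p = 7.6e-08 by limma). rps2, another protein of the entry channel, had 28.6, 15.3 and 18.1 FPKM in clec16a MO libraries and 1047, 1064 and 1011 FPKM in control MO libraries (difference -5.64 on the log2 scale with SE 0.21, adjusted p = 5.5e-07 by limma). It was the second most abundant small subunit mRNA of the control MO group and ranked 24 of 36 in the clec16a MO group. rps4x, a protein of the body, had 19.8, 7.54 and 8.06 FPKM in clec16a MO libraries and 644, 624 and 601 FPKM in control MO libraries (difference -5.73 on the log2 scale with SE 0.32, adjusted p = 3.1e-06 by limma). For these 3 genes the highest clec16a MO value was far below the lowest control MO value.

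Large falls were also seen for rpsa and for some proteins of the head. rpsa, also known as the laminin receptor precursor, had 10.5, 4.19 and 5.53 FPKM in clec16a MO libraries and 242.6, 242.7 and 239.7 FPKM in control MO libraries (difference -5.06 on the log2 scale with SE 0.27, adjusted p = 2.4e-06 by limma). The control MO values of rpsa differed by an SD of 0.703% of their mean, the smallest such spread of the set. rps21, whose product lies beside Rpsa on the subunit, averaged 29.3 ± 12.6 FPKM in clec16a MO libraries and 289 ± 17.7 FPKM in control MO libraries, a log2 difference of -3.33 at the median of the set. rps12, a protein of the beak of the head, averaged 32.4 ± 4.16 FPKM in clec16a MO libraries and 724 ± 48.8 FPKM in control MO libraries (log2 difference -4.45). rps15, on the head, averaged 29.9 ± 6.20 FPKM in clec16a MO libraries and 678 ± 65.1 FPKM in control MO libraries (log2 difference -4.47). Here and below, ± gives the SD of 3 libraries.

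rps20, a head protein, was the most abundant small subunit mRNA of the control MO group. It had 301, 84.4 and 132 FPKM in clec16a MO libraries and 2789, 2673 and 2367 FPKM in control MO libraries. The clec16a MO libraries were more spread for rps20 than the control MO libraries, and its SE was the largest of the set (difference -4.11 on the log2 scale with SE 0.41, adjusted p = 6.2e-05 by limma). rps6, the substrate of the S6 kinases, had 18.6, 7.20 and 11.7 FPKM in clec16a MO libraries and 393, 384 and 371 FPKM in control MO libraries (difference -4.92 on the log2 scale with SE 0.29, adjusted p = 3.6e-06 by limma). rps25, known for a role in internal initiation on some viral RNAs, averaged 14.5 ± 6.77 FPKM in clec16a MO libraries and 288 ± 14.4 FPKM in control MO libraries (log2 difference -4.30). rps3a, a platform protein, averaged 17.8 ± 7.91 FPKM in clec16a MO libraries and 254 ± 8.44 FPKM in control MO libraries (log2 difference -3.83).

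Smaller falls were seen for several other members. rps23, at the decoding centre, averaged 37.4 ± 22.2 FPKM in clec16a MO libraries and 349 ± 32.1 FPKM in control MO libraries (log2 difference -3.33). rps16, whose tail reaches the peptidyl tRNA, averaged 14.6 ± 4.15 FPKM in clec16a MO libraries and 170.4 ± 12.0 FPKM in control MO libraries (log2 difference -3.49). rps9, the least abundant tested small subunit mRNA of the control MO group, had 14.6, 7.45 and 8.87 FPKM in clec16a MO libraries and 68.4, 68.9 and 63.8 FPKM in control MO libraries (log2 difference -2.64). rps14, whose loss impairs red cell formation in people, had 115, 60.4 and 75.9 FPKM in clec16a MO libraries and 465, 459 and 408 FPKM in control MO libraries (difference -2.44 on the log2 scale with SE 0.22, adjusted p = 3.3e-05 by limma). rps13 of the body averaged 74.1 ± 16.1 FPKM in clec16a MO libraries and 297 ± 13.9 FPKM in control MO libraries (log2 difference -2.01). rps27a, which is translated as a fusion with ubiquitin, averaged 95.7 ± 24.0 FPKM in clec16a MO libraries and 386 ± 22.2 FPKM in control MO libraries (log2 difference -2.03).

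The smallest fall was that of rps24, which encodes a protein of the body. It had 45.5, 35.5 and 42.5 FPKM in clec16a MO libraries and 79.4, 76.6 and 66.8 FPKM in control MO libraries (difference -0.84 on the log2 scale with SE 0.12, adjusted p = 0.00049 by limma). It lay close to the median of all tested rows, at the 45.5 percentile of the differences. With each library centred on the median of its tested rows, its difference was -0.15 and did not pass (adjusted p = 0.29 by limma). The same centring left 31 rows lower and 2 higher, where 38.1% of all tested rows were lower and 39.7% higher.

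**Figure D3:**
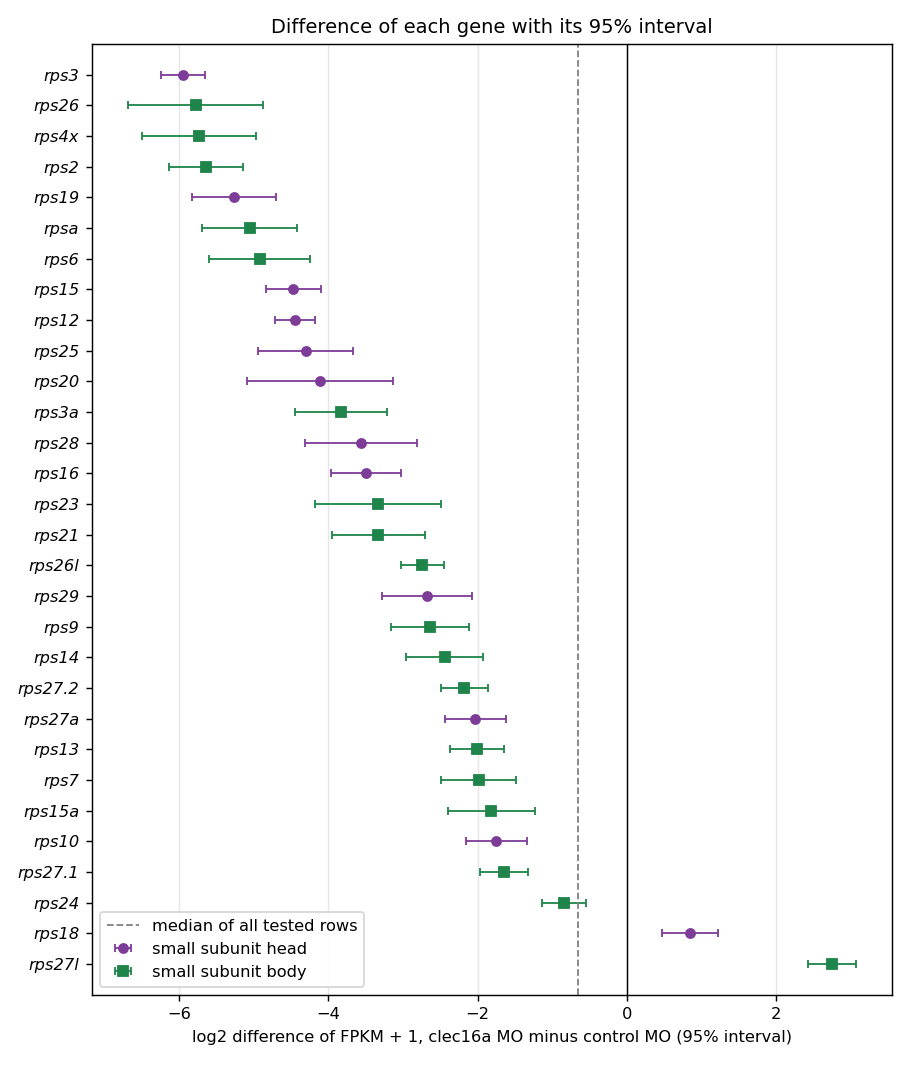
Log2 difference of FPKM + 1, clec16a MO minus control MO (horizontal axis), of 30 tested small subunit rows with 95% intervals from limma, coloured by position on the head or body of the subunit; the dashed line is the median of all tested rows. Of the lower rows drawn, only the interval of rps24 reaches that median of -0.66, and those of rps18 and rps27l lie above 0.

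The 2 mRNAs that were higher in clec16a MO libraries were rps27l and rps18. rps27l, a relative of rps27 whose human counterpart is induced by p53, had 959, 682 and 904 FPKM in clec16a MO libraries and 128, 121 and 122 FPKM in control MO libraries. It was higher by 2.75 on the log2 scale (SE 0.14, adjusted p = 1.7e-06 by limma), at the 96.3 percentile of all tested rows. rps18, a head protein near the site where tRNAs bind, had 497, 325 and 370 FPKM in clec16a MO libraries and 225, 221 and 206 FPKM in control MO libraries (difference 0.85 on the log2 scale with SE 0.16, adjusted p = 0.0017 by limma), at the 79.7 percentile. Both were also called higher with median centring, at 3.44 for rps27l and 1.54 for rps18, and with quantile normalization, at 2.51 and 0.59. Quantile normalization left 33 rows lower and 2 higher, where 39.8% of all tested rows were lower and 38.0% higher.

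These 2 genes made up a larger part of the small subunit mRNA in the clec16a MO group. In the clec16a MO libraries rps27l took 26.5%, 31.3% and 33.6% of the FPKM summed over the 36 rows, against 0.846%, 0.819% and 0.908% in control MO libraries. rps18 took 13.7%, 14.9% and 13.7% of that sum in clec16a MO libraries and 1.48%, 1.49% and 1.53% in control MO libraries. Ranked by share, rps27l stood first in the clec16a MO group and 31 of 36 in the control MO group, and rps18 stood at rank 2 and at rank 25. rps20 took 8.30%, 3.87% and 4.89% in clec16a MO libraries and 18.4%, 18.1% and 17.6% in control MO libraries. Per length, the order of the 35 rows by level was little alike between the groups: Spearman's rho across rows was 0.22 between the group means, and 0.36 over the 33 rows without rps18 and rps27l. For pairs of libraries of one group it lay between 0.964 and 0.989 in the clec16a MO group and between 0.996 and 0.999 in the control MO group. These values describe rows that share the same libraries, and carry no p. The 33 rows leave out rps18 and rps27l because of their rise in these same data.

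**Figure D4:**
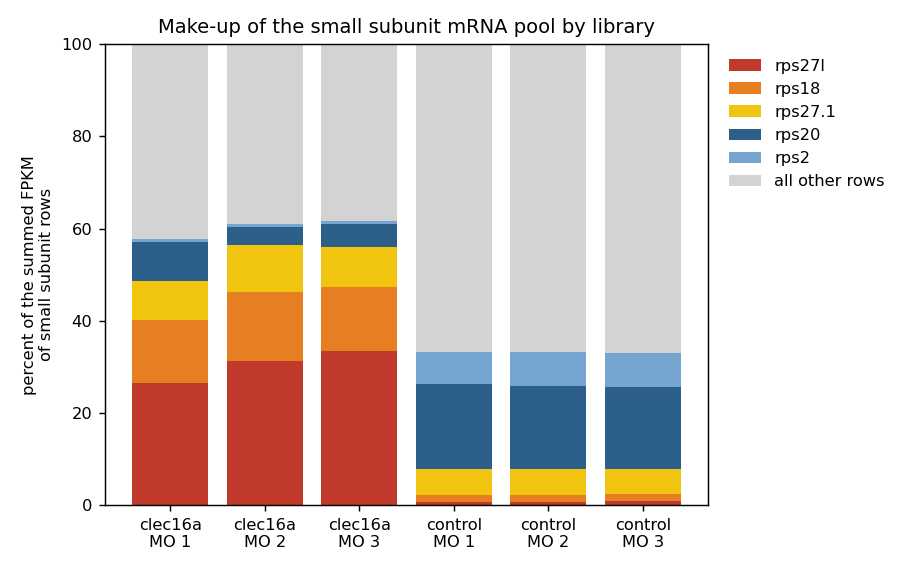
Stacked bars of the percent of the FPKM summed over the 36 small subunit rows (vertical axis) taken by 5 genes and by all other rows in each of the 6 libraries. rps27l and rps18 together fill 40.2% to 47.3% of the bars of the clec16a MO libraries and 2.31% to 2.44% of those of the control MO libraries.

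Several members have close relatives, and for these the division of reads between similar sequences is uncertain, because no label or header tells how reads matching several places were counted. The rps27 relatives differed in direction. rps27.1 had 308, 226 and 237 FPKM in clec16a MO libraries and 845, 831 and 733 FPKM in control MO libraries (difference -1.65 on the log2 scale with SE 0.14, adjusted p = 2.0e-05 by limma). rps27.2 had 25.3, 19.4 and 19.2 FPKM in clec16a MO libraries and 104.6, 103.5 and 90.2 FPKM in control MO libraries (log2 difference -2.18). Summed over the 3 genes, the level was 1293, 927 and 1159.5 FPKM in clec16a MO libraries and 1078, 1056 and 945 FPKM in control MO libraries, so that the groups overlapped. Within that sum rps27l took 74.2%, 73.6% and 77.9% in clec16a MO libraries and 11.9%, 11.5% and 12.9% in control MO libraries.

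The rps26 pair both fell, to different degrees. rps26, which contacts mRNA at the exit, had 13.6, 3.96 and 4.84 FPKM in clec16a MO libraries and 450.1, 423 and 364 FPKM in control MO libraries (difference -5.78 on the log2 scale with SE 0.38, adjusted p = 6.6e-06 by limma). rps26l had 20.4, 26.3 and 21.9 FPKM in clec16a MO libraries and 167, 164 and 144 FPKM in control MO libraries (difference -2.74 on the log2 scale with SE 0.12, adjusted p = 1.1e-06 by limma). rps26l was the more abundant of the pair in each clec16a MO library, and rps26 in each control MO library. rps26l took 76.3% ± 14.3 of the pair in clec16a MO libraries and 27.8% ± 0.604 in control MO libraries.

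**Figure D5:**
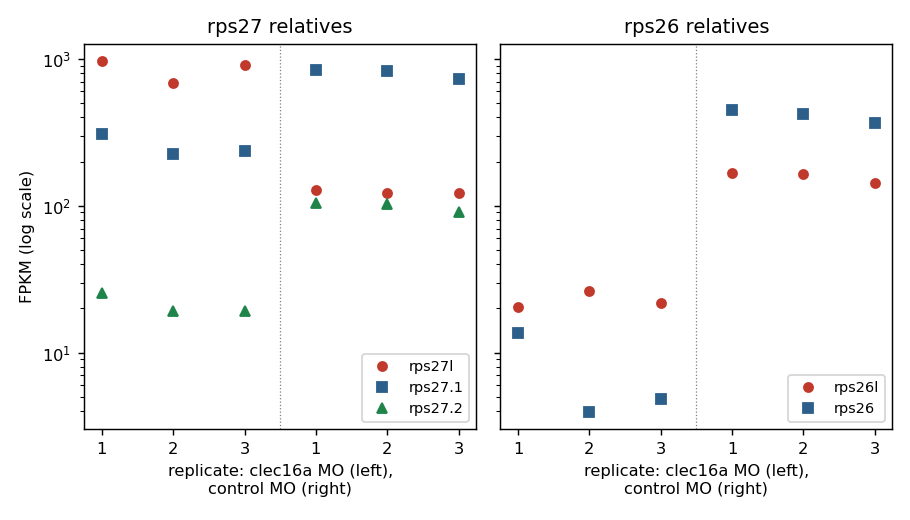
FPKM on a log scale (vertical axis) in the 3 clec16a MO libraries (left of the dotted line) and the 3 control MO libraries (right) for the rps27 relatives and the rps26 relatives. rps27l and rps26l lie above their relatives in each clec16a MO library and below rps27.1 and rps26 in each control MO library.

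Genes whose human counterparts are linked to Diamond-Blackfan anemia were among the members that fell. The 13 rows of this list include rps7, rps10, rps15a, rps19, rps24, rps26, rps26l, rps27.1, rps27.2, rps28 and rps29. All 13 were lower, as were 33 of the 35 tested small subunit rows and 54.6% of all tested rows. The median log2 difference of the 13 was -2.68, against -3.33 over the 35 rows. rps19, the gene most often affected in people, had 3.72, 1.38 and 2.23 FPKM in clec16a MO libraries and 134, 129 and 117 FPKM in control MO libraries (difference -5.27 on the log2 scale with SE 0.24, adjusted p = 1.2e-06 by limma). rps28, on the head, had 36.2, 13.3 and 21.3 FPKM in clec16a MO libraries and 289.6, 277 and 241 FPKM in control MO libraries (log2 difference -3.56). rps29, a head protein that binds zinc, had 95.1, 44.7 and 57.1 FPKM in clec16a MO libraries and 429, 416 and 373 FPKM in control MO libraries (log2 difference -2.68).

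The other genes of that list fell less. rps7, needed for processing of the small subunit RNA precursor, had 207, 111 and 141 FPKM in clec16a MO libraries and 621, 596 and 553 FPKM in control MO libraries (log2 difference -1.99). rps15a, on the body, had 73.1, 35.2 and 54.0 FPKM in clec16a MO libraries and 198, 195 and 165 FPKM in control MO libraries (log2 difference -1.82). rps10, on the head, had 87.6, 53.9 and 71.5 FPKM in clec16a MO libraries and 243, 249.7 and 218 FPKM in control MO libraries (log2 difference -1.75). The 2 groups stood apart for each of them.

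By position and by ancestry the set was described without a test. Of 15 rows encoding proteins of the head, 1 rose (rps18) and 14 fell, with a median log2 difference of -4.11. Of 20 rows encoding proteins of the body and platform, 1 rose (rps27l) and 19 fell, with a median of -2.69, and both groups of rows reached from below -5 to above 0. The 15 genes for proteins shared with bacteria had a median of -3.33 (1 higher, 14 lower), and the 20 rows for proteins that bacteria lack had a median of -3.18 (1 higher, 19 lower). Across the 35 rows, Spearman's rho between the control MO level and the log2 difference was -0.32, given as a description since the control level enters both measures.

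Small subunit proteins outside the naming rule also included large falls. rack1, which encodes a signalling scaffold on the head, had 18.23, 8.396 and 6.171 FPKM in clec16a MO libraries and 615, 617 and 619 FPKM in control MO libraries (difference -5.83 on the log2 scale with SE 0.33, adjusted p = 3.2e-06 by limma). faua, translated as a fusion of a ubiquitin-like protein with a ribosomal protein, had 4.55, 1.73 and 2.21 FPKM in clec16a MO libraries and 489, 472 and 413.5 FPKM in control MO libraries (difference -6.97 on the log2 scale with SE 0.25, adjusted p = 5.3e-07 by limma). Its relative faub, added after its values were seen, had 45.2, 28.1 and 38.1 FPKM in clec16a MO libraries and 45.9, 42.9 and 41.2 FPKM in control MO libraries and did not pass (log2 difference -0.24, limma adjusted p = 0.23). Its difference was 0.45 with median centring (limma adjusted p = 0.036), and without clec16a MO replicate 1 it was -0.39 (limma adjusted p = 0.038).

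The large subunit fell alongside. Of 49 rows matched by name to large subunit proteins, 46 fell, 2 rose (rpl7l1 and rpl37) and 1 missed the threshold. Their median log2 difference was -3.30. Over all tested rows 54.6% fell and 26.7% rose. Some of these rows share a name, and with rows of one name summed 46 of 48 fell and 1 rose. rpl37 was low in both groups, with means of 6.91 FPKM in the clec16a MO group and 4.14 FPKM in the control MO group. The FPKM summed over small subunit rows was 0.842, 0.909 and 0.888 times that summed over large subunit rows in clec16a MO libraries and 0.734, 0.738 and 0.719 times in control MO libraries.

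Genes that assemble the small subunit went largely the other way. Of 52 tested genes for assembly factors, 31 rose, 11 fell and 10 missed the threshold, and the list had a median log2 difference of 0.63. Over all tested rows 26.7% rose and 54.6% fell. imp3, a protein of the complex that folds and cuts the precursor RNA, had 516, 626 and 565 FPKM in clec16a MO libraries and 29.0, 24.3 and 26.6 FPKM in control MO libraries (difference 4.37 on the log2 scale with SE 0.11, adjusted p = 1.4e-07 by limma). tsr2, known in yeast as the escort of Rps26, had 133, 141 and 152 FPKM in clec16a MO libraries and 19.4, 19.1 and 19.2 FPKM in control MO libraries (difference 2.82 on the log2 scale with SE 0.09, adjusted p = 2.9e-07 by limma). bysl, needed late in assembly, fell, with 0, 0 and 0.0793 FPKM in clec16a MO libraries and 27.0, 26.2 and 27.4 FPKM in control MO libraries (difference -4.76 on the log2 scale with SE 0.11, adjusted p = 1.2e-07 by limma). With median centring 39 of the 52 rose and 6 fell, where 39.7% of all tested rows rose and 38.1% fell.

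Genes of TOP mRNA control, a list of mTOR pathway, Larp1, 4E-BP, Cnbp and Myc genes, were mixed. Of 18 tested, 6 rose, 8 fell and 4 missed the threshold, and the list had a median log2 difference of -0.03. The counts moved with the scaling, as did those of all tested rows. With median centring 9 rose and 5 fell, where 39.7% of all tested rows rose and 38.1% fell. With quantile normalization 8 rose and 6 fell, where 38.0% of all tested rows rose and 39.8% fell. eif4ebp1, a repressor of cap-dependent translation under mTOR control, had 426, 399.5 and 341.5 FPKM in clec16a MO libraries and 67.6, 71.1 and 70.5 FPKM in control MO libraries (log2 difference 2.46). In all 3 clec16a MO libraries larp1, whose product binds TOP mRNAs, was listed at 0. The list had 21 rows, of which 18 were tested, so larp1 may have been below the filter. The lowest log2 difference among tested genes of the list was -2.41, so a fall of larp1, if tested, was no deeper. Of 13 genes that p53 induces in other vertebrates, 4 rose, 4 fell and 5 missed the threshold. Over all tested rows 26.7% rose and 54.6% fell. The p53 list had a median log2 difference of -0.12. With median centring 8 of these genes rose and 2 fell, and with quantile normalization 7 rose and 3 fell. The shares of all tested rows under these scalings are those given above. Among them ccng1 had 708, 823 and 741 FPKM in clec16a MO libraries and 167, 171 and 173 FPKM in control MO libraries (log2 difference 2.14). sesn1 of the same list fell, with 12.1, 9.61 and 12.5 FPKM in clec16a MO libraries and 56.4, 56.4 and 58.0 FPKM in control MO libraries (log2 difference -2.23).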

How the data were processed

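Libraries were made, per the labels' protocols, with SMARTer oligo(dT) cDNA synthesis and PCR amplification, then fragmented for paired-end sequencing. The authors deposited 1 table of FPKM values with 1 column per library. The submitters' processing notes name cutadapt 1.9, HISAT2 2.2.1 and StringTie 2.1.6 without settings. No source used here gives the genome build or the annotation. Of 21853 rows, 16 carried a date in place of a name and were left out. Rows with a mean of at least 1 FPKM were tested as log2(FPKM + 1) with limma 3.58.1 (R 4.3.3; trend, two-sided, group as the only term), adjusted by Benjamini-Hochberg over 12153 rows; this scale understates changes of low genes. The fit was tested on simulated data in which only a small part of the rows was shifted. Most rows were called in the real data, so that test does not cover differences this widespread. Means are over 3 libraries. Members and lists were chosen with earlier results of these data known. Values of all libraries were set to be printed for the 6 lowest and 6 highest differences, the anemia-linked genes, rps6, rps14 and members with relatives; of each further list up to 3 genes with the smallest adjusted p, and of each marker list up to 2 with the largest difference, could be named. Genes at 0, fli1a, faub, rpl7l1, rpl37 and sesn1 were named after their values were seen. Some members enter the counts, medians and sums, but their own values are not reported here. Shares under another scaling were taken back to FPKM over tested rows. Alternatives changed the pseudocount, filter, scaling, trend, weights, libraries and replicate block. Figures used matplotlib 3.10.9 (Python 3.11.15).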

Additional observations from a re-analysis of the deposited data

How the results depend on the processing

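Of the 35 tested small subunit rows, 33 kept their direction and call in each of 17 alternatives; the other 2, rps24 among them, missed the threshold with median centring only. The count of 33 lower became 31 with median centring and 32 with rows of one name summed, and 2 were higher in each alternative. The median log2 difference of these rows was -2.64 with median centring (large subunit rows -2.61, all tested rows 0.0315, a reversal from -0.66) and was -3.65 to -3.03 when 1 library was left out; for all tested rows it was -0.0357 with quantile normalization. All tested rows called lower numbered 10430 with no filter and 3472 with a filter of 5 FPKM, as the number of rows tested changed; lower and higher calls were 6638 and 3239 as deposited, 4632 and 4819 after median centring, and 4835 and 4614 after quantile normalization. Large subunit rows called higher numbered 4 with median centring and 1 with rows of one name summed. With the 5 FPKM filter 7 assembly genes and 3 TOP mRNA control genes were lower. With median centring 6 assembly, 5 TOP mRNA control and 2 p53 target genes were lower and 8 p53 target genes higher, the last 7 with quantile normalization. Spearman's rho of the group means was 0.28 with no filter. faub turned to 0.45 with median centring, and cnbpb, 0.24 as deposited, to -0.0418 with quantile normalization. The cause of these changes was not tested unless named. The difference in the small subunit share of summed FPKM, clec16a MO minus control MO, was -2.37 percentage points as deposited, -2.48 with the 5 FPKM filter, -2.40 with median centring, -2.66 with quantile normalization and -2.56 with ribosomal protein and globin rows left out of the total; it was -2.45 to -2.31 when 1 library was left out. Over the 6 fits that left out 1 library, calls ranged over 6161 to 6798 lower and 2941 to 3352 higher for all tested rows, 44 to 46 lower for the large subunit, 29 to 32 higher and 9 to 13 lower for assembly, 5 to 8 higher and 7 to 9 lower for TOP mRNA control, and 4 to 5 higher and 3 to 5 lower for p53 targets; the rho ranged over 0.19 to 0.24, and the difference of clec16a over -1.38 to -1.21.

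Over all 12153 tested rows, no shared effect of the replicate numbers in the titles was seen. Deviations from the group means correlated at 0.04, -0.02 and 0.01 for replicates 1, 2 and 3. Pairs of unlike number ran from -0.05 to 0.04. Such values cannot tell whether the libraries were prepared in pairs, and were not computed for the small subunit rows alone. Among those 35 rows, replicate 1 was highest for 34 in the clec16a MO group and 28 in the control MO group. The lowest was replicate 2 for 30 rows in the clec16a MO group and replicate 3 for 34 in the control MO group. With the replicate block 33 small subunit rows were lower and 2 higher. Depth is unknown, so no counting error can be given.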
